A study of Rattus norvegicus with 24 samples.

Results

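Ifit1 is 1 gene, carried by 1 row (ENSRNOG00000019050) of the 32623 genes counted in carotid bodies (CBs) of spontaneously hypertensive (SH) rats and normotensive Wistar Kyoto (WKY) rats. It was chosen by its counts, which differed widely between the strains, so the strain difference of Ifit1 is described here without a test. The 5 rows before it and the 5 rows after it in the deposited table, and the 1 other Ifit gene whose symbol could be paired with a row, were followed with it to see where reads of near-identical Ifit copies might lie. Interferon genes were followed to see whether a wider response accompanied it.

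The CB is a small chemosensory organ at the fork of the carotid artery, in which glomus cells sense blood gases and signal through the carotid sinus nerve. RNA was sequenced from the left and the right CB of 6 male WKY/NHsd and 6 male SHR/NHsd rats aged 12 to 14 weeks, which gave 24 libraries of 9198341 to 13655419 counted reads. The labels name no transgene and no treatment, every rat was perfused with ice-cold buffer before dissection, and strain is the only stated difference between the groups. The right CB of SHR rat 34 stood apart from the others. The summed level of 7 glomus genes, among them Dbh and Chga, was 77.7 CPM (counts scaled to the size of a library) there against 1770 to 2741 CPM in the other 11 SHR libraries. Thyroglobulin (Tg), the thyroid hormone precursor, was at 7849 CPM there and at 0.461 to 218 CPM in the other SHR libraries. The study leaves this library out, so 23 libraries were compared and its values are given separately.

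IFIT proteins are built of tetratricopeptide repeats. IFIT1 binds RNA whose cap lacks the methyl marks of the host and keeps it from being translated, and it is one of the genes most sharply induced by type I interferon. Interferon binds its receptor (Ifnar1 is a subunit), and the signal acts on interferon-stimulated response elements in promoters. Many tissues hold little Ifit1 mRNA until they are exposed to interferon or to nucleic acid that their sensors recognise. In RefSeq (GRCr8) rat Ifit1 lies on chromosome 1 after Ch25h, Lipa, Ifit2, Ifit3 and Ifit1bl, and its neighbours on the other side are Slc16a12 and Pank1. The annotated span of Ifit1bl, which encodes an Ifit1-like protein, contains Ifit1.

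The promoter table used here holds Ifit1bl with 2 annotated starts, and no entry for Ifit1 or Ifit2. The 250 bases before each Ifit1bl start are shown because Ifit1bl was the only other Ifit gene whose row could be identified and its annotated starts differ in the letters of an interferon-stimulated response element. GAAANNGAAA was searched with its other-strand form TTTCNNTTTC, a match being allowed to overlap another, and matches are in capitals. The sequence before start 1 (GRCr8, RefSeq, minus strand, chr1:241543556-241543805) held 1 match, 111 bases before the start.
Ifit1bl start 1: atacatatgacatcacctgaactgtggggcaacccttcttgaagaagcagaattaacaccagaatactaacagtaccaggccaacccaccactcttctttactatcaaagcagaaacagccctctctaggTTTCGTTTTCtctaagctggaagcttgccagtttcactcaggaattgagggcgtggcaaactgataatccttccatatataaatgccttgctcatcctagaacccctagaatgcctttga
Ifit1bl start 2: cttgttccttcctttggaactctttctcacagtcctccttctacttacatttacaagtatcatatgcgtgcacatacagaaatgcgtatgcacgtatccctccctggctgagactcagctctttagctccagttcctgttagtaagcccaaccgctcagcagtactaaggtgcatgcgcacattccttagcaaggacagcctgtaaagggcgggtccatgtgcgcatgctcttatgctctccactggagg
The sequence before start 2 (minus strand, chr1:241580477-241580726) held none. Among all 33469 promoter entries 3.41% held a match. The counts do not tell which start was used.

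Ifit1 was read in every SHR CB and was at or near 0 in every WKY CB. In WKY the left CBs of rats 32 and 34 gave 2 and 3 counts, the right CB of rat 33 gave 1 count, and the other 9 of 12 libraries gave 0. A count of 0 allows up to 0.266 to 0.331 CPM in these libraries, taking 3 counts as the limit. In the left CBs of SHR, Ifit1 was 26.9 CPM at the lowest (rat 33, 292 counts), 43.4 CPM at the median and 63.8 CPM at the highest (rat 31, 607 counts). In the 5 right CBs it was 36.3 CPM in rat 30, 49.9 in rat 31, 30.4 in rat 33, 33.1 in rat 36 and 30.5 in rat 37. CPM were scaled by the trimmed mean of M values (TMM). The strains did not overlap in any library.

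**Figure D1:**
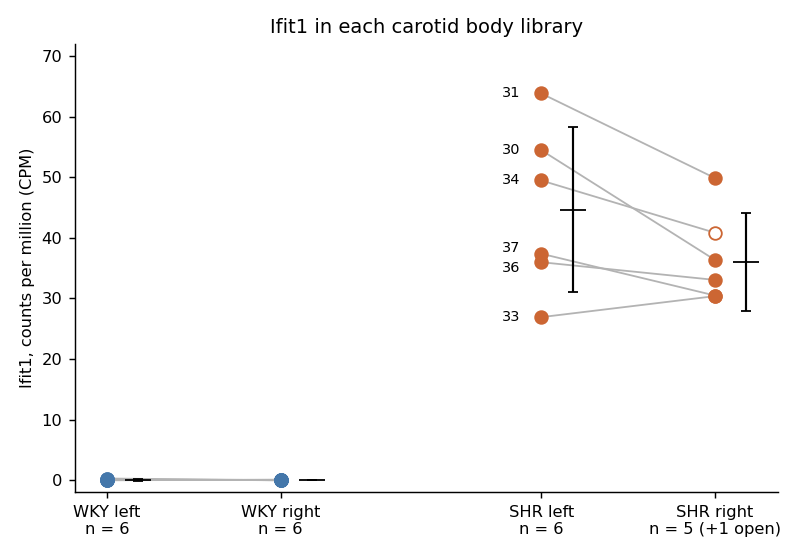
Ifit1 level in CPM (linear axis) in each CB library by strain and side. Lines join the CBs of a rat, black marks give the mean and SD, numbers are SHR rats, and the open point is the right CB of SHR rat 34, which is outside the means. SHR libraries lie between 26.9 and 63.8 CPM, and the WKY libraries lie at 0 to 0.293 CPM.

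With the CBs of a rat averaged, Ifit1 averaged 41.5 ± 10.8 CPM in the SHR rats (SD, n = 6) and 0.04998 ± 0.0623 CPM in the WKY rats (SD, n = 6). The SHR libraries summed to 4658 counts and the WKY libraries to 6 counts, a ratio of 821 after scaling with an exact conditional 95% interval of 377 to 2238 that covers counting error only. The lowest SHR library stood 81.4-fold above what 3 counts amount to in the WKY library with the highest such limit. The order of the group levels was SHR left (44.7 ± 13.6 CPM, SD, n = 6), SHR right (36.03 ± 8.10, SD, n = 5), WKY left (0.0824 ± 0.131, SD, n = 6) and WKY right (0.0175 ± 0.0430, SD, n = 6). Neighbours of the same strain in that order overlapped within their SDs.

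The right CB of SHR rat 34, with its low glomus and high thyroid levels, held 330 Ifit1 counts (40.8 CPM), inside the range of the other SHR libraries. Its left CB held 443 counts (49.5 CPM). Bulk libraries cannot tell more cells of a type from more RNA per cell, so which cells carried the transcript cannot be told apart here.

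Ifit1 was chosen by its counts in the strains, so its own on and off pattern is a description. Of the genes counted, 22609 had any count in the 23 libraries. Such a pattern was rare. Only 5 of the 32623 genes, or 0.0153%, had at most 3 counts in every WKY library and more than 3 in every SHR library, and Ifit1 was one of them with a median of 363 counts in SHR. The other 4 (ENSRNOG00000018045, ENSRNOG00000032518, ENSRNOG00000049047 and ENSRNOG00000030431) carry no paired symbol, and their SHR counts ran from 12 to 63, 18 to 49, 5 to 27 and 4 to 17. Another 4 genes showed the pattern the other way round. The gene counts were 5 and 4 also with all 24 libraries.

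Among SHR rats, Ifit1 varied more than most genes. The rat means ran from 28.7 CPM in rat 33 to 56.8 CPM in rat 31 with a median of 40.0 CPM, a coefficient of variation of 26.1% against a median of 11.6% over the 14258 genes tested. Of these genes, 86.2% had a lower coefficient. The SHR rats thus differed in level while every one of them stayed far above the WKY rats.

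Left and right CBs were compared next, which the choice of Ifit1 by strain did not use. In SHR the left CB carried 1.499 times the Ifit1 level of the right in rat 30, 1.28 times in rat 31, 0.886 times in rat 33, 1.09 times in rat 36 and 1.23 times in rat 37. The left was higher in 4 of 5 rats, with a mean log2 ratio of 0.24 ± 0.28 (SD, n = 5) and a 2-sided exact sign-flip permutation p of 0.1875, where the smallest p that 5 rats allow is 0.0625. With the left-out library the left was higher in 5 of 6 rats (exact permutation p = 0.09375, smallest possible 0.03125). The sign-flip test did not pass at this number of rats.

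Fitted over all genes by edgeR's quasi-likelihood test, Ifit1 had a log2 left minus right difference of 0.31 (standard error 0.209, Benjamini-Hochberg adjusted p = 0.868). With the rat as a block it was 0.25 (adjusted p = 0.641, unadjusted p = 0.0373). Of 14200 genes tested in SHR 0, or 0.0%, passed an adjusted p of 0.05 by edgeR, 781 had an unadjusted p under 0.05, DESeq2 called 0, and the block called 1. The difference between the strains in the side effect was called for 0 of 14258 genes by edgeR's interaction term, with 438 at an unadjusted p under 0.05. Ifit1 in WKY was too low for a side comparison.

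The rows around Ifit1 did not share its pattern. Rows of the table are grouped by chromosome, since 1224 of 1254 neighbouring pairs of rows with symbols lay on 1 chromosome. Order within a chromosome was not tested over all rows. Ch25h and Ifit1bl stand 6 and 2 rows before Ifit1, in the order they have in RefSeq, and Acta2 stands 9 rows before it. The row directly before Ifit1 (ENSRNOG00000053533) held 0 to 2 counts in either strain. The row directly after it (ENSRNOG00000021916) held 30 to 103 counts in WKY and 21 to 120 in SHR. Neither row was high in the WKY libraries where Ifit1 was at 0.

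Of the 10 rows, 6 had a mean normalized count above 10 and were tested, and edgeR's quasi-likelihood test called 1 higher and 1 lower in SHR at an adjusted p of 0.05. Over all genes tested it called 2863 of 14258, or 20.1%. A pair of calls among 6 rows is thus no result about this stretch. The 4 rows not tested were ENSRNOG00000053533, ENSRNOG00000041852 with 0 to 4 counts, ENSRNOG00000035639 with 0 in all libraries, and ENSRNOG00000053699 with 0 to 8 counts.

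The row called higher was Ifit1bl, 2 rows before Ifit1. It held 9, 16, 21, 15, 30 and 34 counts in the left CBs and 20, 10, 27, 19, 12 and 13 in the right CBs of WKY rats 32, 33, 34, 36, 37 and 41. In SHR it held 31, 31, 35, 37, 45 and 35 counts in the left CBs of rats 30, 31, 33, 34, 36 and 37, and 25, 51, 25, 26 and 34 in the right CBs of rats 30, 31, 33, 36 and 37. Single libraries of the strains overlapped, and the rat means did not.

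Ifit1bl averaged 3.36 ± 0.530 CPM in the SHR rats (SD, n = 6) against 1.86 ± 0.422 CPM in the WKY rats (SD, n = 6). Its log2 fold change was 0.81 (SE 0.201, edgeR adjusted p = 0.00450). An exact 2-sided permutation test over the 12 rats gave p = 0.00216, the smallest that 6 rats a strain allow. The symbol Ifit1bl, like the others, came from a list of genes higher in SHR, so the direction of Ifit1bl is not independent evidence for Ifit genes. No row could be paired with the symbols Ifit2 and Ifit3. In RefSeq, Lipa, Ifit2 and Ifit3 lie between Ch25h and Ifit1bl. The rows between Ch25h and Ifit1bl here were ENSRNOG00000019077, ENSRNOG00000036604 and ENSRNOG00000022839, given below. Whether any of them is Ifit2 or Ifit3 was not tested. Unlike Ifit1, Ifit1bl was read in every WKY library. The right CB of SHR rat 34, where Ifit1 was at its SHR level, held 12 Ifit1bl counts (1.49 CPM), within the WKY range. With that library the log2 fold change was 0.74 (edgeR adjusted p = 0.0193). In the left CBs alone and in the right CBs alone Ifit1bl did not pass (edgeR adjusted p = 0.0918 and 0.136).

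The row called lower was ENSRNOG00000036604, 4 rows before Ifit1, whose symbol was not paired. WKY rats averaged 93.9 ± 13.8 CPM (SD, n = 6), with 722 to 1348 counts a library, and SHR rats 72.4 ± 14.3 CPM (SD, n = 6), with 511 to 1173. Its log2 fold change was -0.40 (SE 0.102, edgeR adjusted p = 0.00618), the rats of the strains overlapped, and the exact 2-sided permutation test over rats gave p = 0.0173. With the counts of each rat summed it no longer passed (edgeR adjusted p = 0.0845).

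The other rows tested did not pass. ENSRNOG00000019077 averaged 67.7 ± 2.74 CPM over the WKY rats and 67.9 ± 4.37 CPM over the SHR rats (SD, n = 6 each, log2 fold change 0.01), and ENSRNOG00000022839 was 23.3 ± 6.51 and 21.2 ± 3.48 CPM (log2 fold change -0.16). After Ifit1, ENSRNOG00000021916 was 5.96 ± 1.33 and 7.24 ± 3.14 CPM (log2 fold change 0.25) and ENSRNOG00000018944 was 6.15 ± 1.66 and 6.04 ± 1.27 CPM (log2 fold change -0.10). Within SHR, ENSRNOG00000021916 was lowest in the CBs of rats 30 and 31, at 2.19 to 4.61 CPM, and 6.44 to 12.3 CPM in those of the other rats, apart from the left-out right CB of rat 34 at 1.98 CPM.

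**Figure D2:**
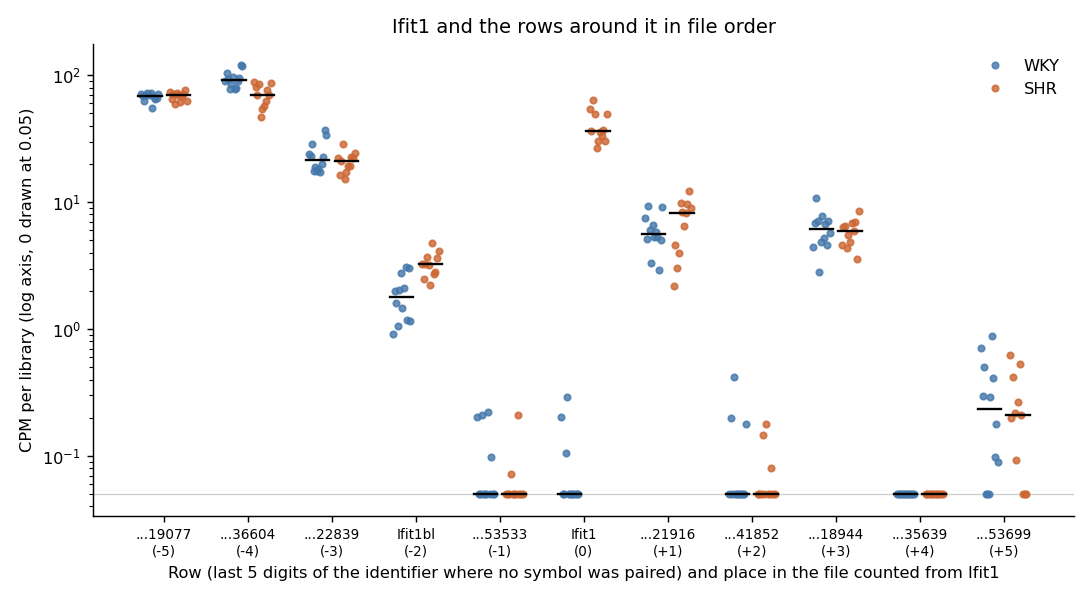
CPM of each of the 23 libraries (log axis, 0 drawn at 0.05) for Ifit1 and the 5 rows on either side of it in file order, WKY and SHR side by side, with a bar at each median. Ifit1 is the row with separated strains, Ifit1bl (-2) is shifted with overlap between libraries, and the rows directly before and after Ifit1 overlap fully.

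Read splitting within this window was put as a sum. The 10 rows together summed to 199 ± 21.7 CPM over the WKY rats and to 178 ± 16.1 CPM over the SHR rats (SD, n = 6 each), a difference of -21.0 CPM for SHR minus WKY with an exact 2-sided permutation p of 0.0844 over rats. With Ifit1 added the sums were 199 ± 21.7 and 220 ± 24.3 CPM. The difference between the strains in the 10 rows did not pass, and most of it lay in ENSRNOG00000036604. The 2 rows directly beside Ifit1 summed to 6.02 ± 1.34 CPM over the WKY rats and to 7.26 ± 3.13 CPM over the SHR rats (SD, n = 6 each, exact permutation p = 0.385). Whether reads of a WKY Ifit1 sequence were dropped or counted outside this window was not tested.

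Interferon genes were taken from lists of 39 antiviral effectors, 24 genes of sensing and signalling and 14 genes of antigen presentation, of which 5, 6 and 9 could be paired with rows. Symbols could be paired only for genes that were higher in SHR, so the direction of these 20 genes was set by how their names were found and is not evidence of a response. The same holds for their count of calls. By edgeR 14 of the 20 were called higher, against 817 of all 1273 genes with symbols and 1459 of all genes tested, or 10.2%. Their median log2 fold change was 0.41, and that of all genes with symbols was also 0.41, against 0.01 over all genes tested. The interferon genes that could be named were thus called about as often, and differed about as far, as the named genes as a whole. With all 24 libraries 11 of the 20 were called, against 488 of the genes with symbols and 1483 of all 14276 genes tested. The share among the 20 was the larger one in that setting, and what set it apart was not tested.

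Among antiviral effectors 3 of 5 were called higher, where 817 of all 1273 genes with symbols were. Ifitm2, a membrane protein that hinders entry of enveloped viruses, went from 209 ± 11.6 CPM over the WKY rats to 281 ± 25.7 CPM over the SHR rats (SD, n = 6 each, log2 fold change 0.43, edgeR adjusted p = 1.7e-06). Ch25h, which makes an antiviral oxysterol and lies near Ifit1, was 14.5 ± 2.58 and 28.0 ± 10.3 CPM, a log2 fold change of 0.88 (edgeR adjusted p = 0.000315), with 112 to 222 counts in WKY and 165 to 432 in SHR. Tor3a, an interferon-responsive ATPase of the torsin family, was 19.9 ± 2.10 and 24.9 ± 1.86 CPM, a log2 fold change of 0.32 (edgeR adjusted p = 0.00298). In right CBs alone Tor3a did not pass (0.12, edgeR adjusted p = 0.595), whereas in left CBs alone it did (0.50, adjusted p = 0.00230), and the interaction term of strain and side did not call it.

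Cxcl10, a chemokine strongly induced by interferon, did not pass. It held 17 to 65 counts in WKY and 8 to 246 in SHR (log2 fold change 0.49, SE 0.374, edgeR adjusted p = 0.382). In left CBs alone the log2 fold change was 0.94 and in right CBs alone -0.0547, neither called. Its SHR libraries ran both below and above the WKY libraries, whereas those of Ifit1 were all above. Apol3, an interferon-induced apolipoprotein L, had a log2 fold change of 0.30 (edgeR adjusted p = 0.147), which passed without WKY rat 34 (0.43, adjusted p = 0.0240).

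Among sensing and signalling genes 4 of 6 were called higher, against 817 of all 1273 genes with symbols, and the changes were small. Ifnar1, the receptor subunit, went from 153 ± 5.76 CPM over the WKY rats to 185 ± 3.84 CPM over the SHR rats (SD, n = 6 each, log2 fold change 0.27, edgeR adjusted p = 8.3e-07). Nlrx1, a mitochondrial protein of the NOD-like receptor family, was 18.9 ± 2.03 and 26.3 ± 1.55 CPM (log2 fold change 0.49). Zcchc3, a co-sensor of nucleic acid, and Sting1, the adaptor of cytosolic DNA sensing, had log2 fold changes of 0.29 and 0.34 (edgeR adjusted p = 0.0218 and 0.0460), and neither passed with all 24 libraries (0.115 and 0.126). Irf5, a transcription factor downstream of sensing, had a log2 fold change of 0.37 (adjusted p = 0.107), and Nlrc3, which dampens sensing, one of 0.41 (adjusted p = 0.155).

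Among antigen presentation genes 7 of 9 were called higher, again beside 817 of all 1273 genes with symbols. RT1-A1, a class I histocompatibility gene, ran from 1144 to 1640 counts in WKY and from 4904 to 8949 in SHR, a log2 fold change of 2.22. RT1-CE12, another class I gene, went from 3.69 ± 1.02 CPM over the WKY rats to 9.60 ± 2.71 CPM over the SHR rats (SD, n = 6 each, log2 fold change 1.36). Both, like RT1-A2 and RT1-S2 below, belong to a family with near-identical copies, so the counts of these genes are uncertain. Psmb8, a subunit of the immunoproteasome, had a log2 fold change of 0.56, and Tapbp and Tapbpl, which help load peptides on class I molecules, had 0.39 and 0.53. RT1-A2, a further class I gene, had 0.41 (edgeR adjusted p for these 6 genes at most 0.000170). Cd74, the invariant chain, had 0.31 (edgeR adjusted p = 0.0461, and 0.1798 with all 24 libraries). RT1-S2, a class I gene, and Ciita, the activator of class II genes, had 0.42 and 0.30 and did not pass (edgeR adjusted p = 0.114 and 0.253).

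**Figure D3:**
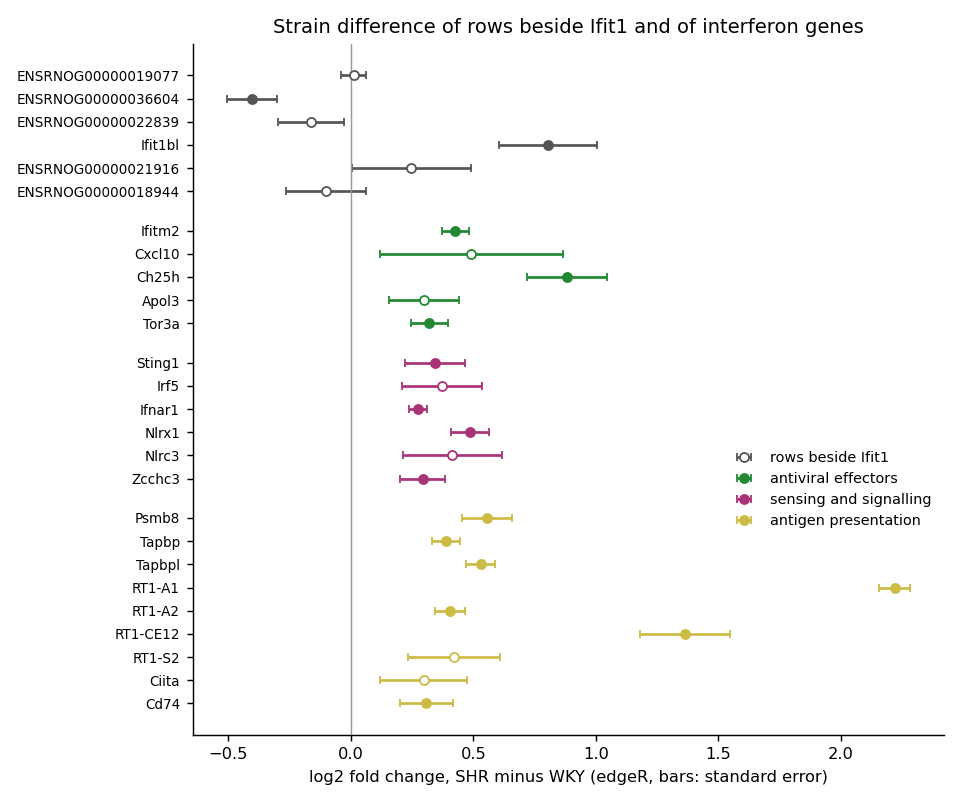
log2 fold change, SHR minus WKY, with its standard error from edgeR, for the 6 rows beside Ifit1 that were tested and the 20 paired interferon genes. Filled points passed an adjusted p of 0.05. The rows beside Ifit1 lie on both sides of 0, and the interferon genes, whose direction was set by how their symbols were found, lie between 0.27 and 2.22.

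The SHR rats did not overlap the WKY rats for 8 of the 20 genes, against 354 of all 1273 genes with symbols and 7.06% of all genes tested. Markers of cell types were set beside these genes. The summed level of 8 macrophage genes such as C1qa and Cd163 was 84.8 to 148 CPM in WKY libraries and 123 to 233 CPM in SHR libraries, with 7 of 8 called higher. The 7 glomus genes, all called higher, summed to 1231 to 1894 and 1770 to 2741 CPM. The summed level was 23.6 to 41.4 and 28.1 to 77.3 CPM for 5 lymphocyte genes (2 called), 1.43 to 3.71 and 3.69 to 25.0 CPM for 3 mast cell genes (3 called), and 214 to 282 and 277 to 351 CPM for 3 endothelial genes (3 called). For 4 smooth muscle genes it was 241 to 867 and 391 to 1119 CPM (0 called), for 4 adipocyte genes 45.2 to 81.1 and 52.3 to 120 CPM (2 called), and Tg ran from 0.0970 to 10.7 and from 0.461 to 218 CPM and was called. No sustentacular marker could be paired. These markers were also named through genes higher in SHR, so their direction is not evidence of a shift in cells. The same holds for their calls, as 817 of all 1273 genes with symbols were called higher. Of the markers listed, 7 of 12 glomus, 8 of 10 macrophage, 5 of 8 lymphocyte and 3 of 4 mast cell genes could be paired. So could 3 of 6 endothelial, 4 of 5 smooth muscle and 4 of 5 adipocyte genes. The part of the markers in the levels of Ifit1 and the interferon genes was not tested.

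Over the 6 SHR rats, the level of Ifit1 was set beside that of Ifit1bl and of the 5 antiviral effectors, which asks whether rats with more Ifit1 had more of other interferon genes. Pearson's r on log2(CPM + 1) was 0.88 for Tor3a (Spearman's rho 0.829), with exact permutation p of 0.0417 for r and 0.0583 for rho. Over the 6 genes the Benjamini-Hochberg adjusted values of that permutation test were 0.25 and 0.175. For Apol3 r was 0.77 (rho 0.771, exact permutation p = 0.108 and 0.103), for Ifitm2 0.72 (rho 0.829, p = 0.125 and 0.0583), for Ifit1bl 0.52 (rho 0.60, p = 0.275 and 0.242), for Cxcl10 0.38 (rho 0.314, p = 0.433 and 0.564) and for Ch25h 0.31 (rho 0.371, p = 0.547 and 0.497). With the left-out library added, r was 0.19 for Ifitm2, 0.14 for Ifit1bl, 0.17 for Ch25h, 0.34 for Cxcl10, 0.74 for Apol3 and 0.83 for Tor3a. None of the 6 passed after adjustment in the 23 libraries, the smallest adjusted permutation p being 0.25 for r and 0.175 for rho.

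Tor3a held 26.1 CPM in rat 30, 26.8 in rat 31, 23.1 in rat 33, 26.7 in rat 34, 22.5 in rat 36 and 24.5 in rat 37. The 3 rats with the most Ifit1, rats 31, 34 and 30, also had the most Tor3a, over a narrow range. Without rats 31 and 33, which lay farthest from the median of Ifit1, r was 0.86 for Tor3a, 0.59 for Apol3, 0.11 for Ifitm2, 0.26 for Ifit1bl, 0.71 for Ch25h and -0.0677 for Cxcl10. The value for Ifitm2 fell most without those rats, and 4 rats are too few to test any of the 6.

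**Figure D4:**
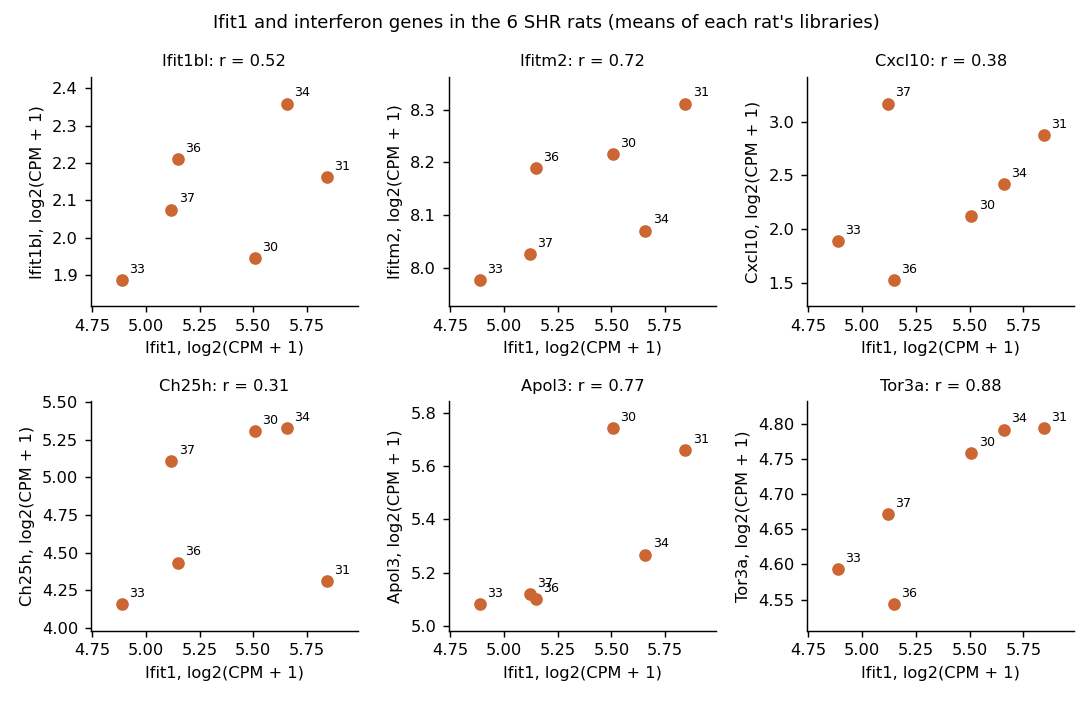
Mean log2(CPM + 1) of Ifit1 (horizontal axis) against Ifit1bl and 5 antiviral effectors (vertical axes) in the 6 SHR rats, 1 point a rat with its number. Points for Tor3a lie closest to a line (r = 0.88), and those for Ch25h and Cxcl10 scatter widely (r = 0.31 and 0.38).

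Of the 14258 genes tested, those whose levels ran most like Ifit1 over the 23 libraries were RT1-A1 (r = 0.994 on log2(CPM + 1)), Chodl (0.985), LOC103690108 (0.985), Slc35c2 (0.983) and Cdh9 (0.981). These values describe the common step between the strains, as all 23 libraries share it, and carry no test. In the right CB of SHR rat 34, which this ranking did not use, each of the 5 genes held fewer counts than in any other SHR library. RT1-A1 held 3645 counts there (1144 to 1640 in WKY and 4904 to 8949 in the other SHR libraries), Slc35c2, a putative nucleotide sugar transporter, held 569 (400 to 534 in WKY and 1102 to 2065 in the other SHR libraries), and LOC103690108 held 672 (339 to 468 and 1052 to 2079). Chodl, a membrane protein of the C-type lectin family, held 69 counts (32 to 58 in WKY and 464 to 720 in the other SHR libraries), and Cdh9, a cadherin, held 0 (78 to 173 and 595 to 991). In that library, poor in glomus transcripts, the Ifit1 count lay within the range of the other SHR libraries. The counts of these 5 genes lay below that range. The 5 antiviral effectors Ifitm2, Cxcl10, Ch25h, Apol3 and Tor3a were there at 136, 2.60, 19.2, 30.4 and 22.4 CPM (scaled over all 24 libraries). Rat means were 209, 3.63, 14.5, 32.9 and 19.9 CPM in WKY and 281, 5.27, 28.0, 40.2 and 24.9 CPM in SHR. The part of tissue content in these values was not tested.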

How the data were processed

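CBs were dissected from perfused rats, and stranded poly(A) libraries were sequenced on an Illumina NextSeq instrument. The authors aligned reads with STAR and counted them per gene with featureCounts, and deposited raw counts with no normalization. Versions, genome build, annotation, strand setting and the handling of reads with several matches are not given in the sources used here, and the last of these can move reads between Ifit copies. The deposited table pairs no symbols. Symbols came from the identity columns of the study's list of genes higher in SHR, as far as it could be read (1273 identifiers). Genes lower in SHR could not be named.

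The members and lists were chosen with earlier results of these data known. Rows named are Ifit1, the 5 rows on either side, paired members of the lists (Ifit, antiviral effectors, sensing and signalling, antigen presentation and cell type markers), genes with the on and off pattern, and the 5 genes tested that were most like Ifit1. CPM used TMM factors (edgeR 4.0.16, R 4.3.3). Genes whose normalized count averaged over 10 entered edgeR's quasi-likelihood test with side and strain as terms, Benjamini-Hochberg adjusted over all genes tested (threshold 0.05). Both CBs of a rat entered as separate libraries, so these p-values can be too small. The numbers pair left and right by animal, and deviations of the CBs of a rat had a median correlation of 0.0565 (-0.214 to 0.255 over 11 rats). Rat means were compared by exact permutation tests (scipy 1.17.1). Counts of 9198341 to 13655419 a library set the limit of 3 counts at 0.266 to 0.331 CPM in WKY. No 2 libraries of a strain agreed within sampling noise (lowest chi-square per degree of freedom 5.17 over 121 pairs). Alternatives were DESeq2 1.42.0 (size factors and test), limma 3.58.1 voom with a rat block, no count filter, no side term, all 24 libraries, counts summed per rat, each side alone, a block on the rat number, and leaving out each rat. The fits were tested on simulated counts with known changes. Each library was drawn independently, so the sharing of a rat by its left and right CBs was not covered. RefSeq (GRCr8, 47357 genes) gave gene order and promoters, and no row was named by its place.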

Additional observations from a re-analysis of the deposited data

Results flagged for a closer look

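In 4 of 53 groups of 6 rats, 1 rat lay far from the others by Dixon's criterion, where chance gives about 1 in 20. ENSRNOG00000022839, 3 rows before Ifit1, was 35.7 CPM in WKY rat 41 and 17.9 to 23.6 CPM in the other WKY rats. ENSRNOG00000018944, 3 rows after it, was 8.49 CPM in SHR rat 34, which has 1 library in this comparison, and 5.18 to 6.37 CPM in the other SHR rats. Cxcl10 was 5.66 CPM in WKY rat 32 and 2.61 to 3.54 CPM in the others, and Apol3 was 47.3 CPM in WKY rat 34 and 29.0 to 30.8 CPM in the others. Ifit1 itself had no such rat in either strain.

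The right CB of SHR rat 34, outside the main comparisons, held 330 Ifit1 counts, where WKY libraries held 0 to 3.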

How the results depend on the processing

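The 81.4-fold distance of the lowest SHR library from the 3-count limit ran from 81.4 to 92.2 when each rat was left out, and the log2 left minus right difference of Ifit1 from 0.25 to 0.37. Ifit1bl stayed called in each of these fits (log2 fold change 0.73 to 0.90, edgeR adjusted p from 0.00314 to 0.0152). The 2 rows beside Ifit1 called in each were Ifit1bl itself and ENSRNOG00000036604, while the called interferon genes ranged from 11 to 14 of 20. Of the rows beside Ifit1, 1 was called with counts summed per rat (2041 genes called in all), and 0 in left CBs alone (1270 in all) and 0 in right CBs alone (838 in all), each with fewer libraries than the 23 that called 2863. Ifit1bl then had log2 fold changes of 0.81 (left) and 0.79 (right), and right CBs alone called 9 interferon genes. With all 24 libraries 1483 genes were called, and with voom 2299. Over the 4 rats nearest the median of Ifit1, r with Cxcl10 was -0.0677. Differences that were not called in any fit changed sign for Cxcl10 in right CBs alone (-0.0547, against 0.94 in left CBs alone), ENSRNOG00000019077 with counts summed per rat (-0.0022), in left CBs alone (-0.0006) and without single rats (-0.022 to 0.0256), and ENSRNOG00000018944 (-0.2051 to 0.0331 without single rats, the upper value without WKY rat 33). Their causes were not tested. Of the 5 genes most like Ifit1 over the libraries, 2 were among the 5 most like it over the 12 rat means, an alternative chosen after seeing the data.

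Rats of both strains carry 4 shared numbers, whose deviations correlated by -0.259 to 0.0668. Left and right CBs of a rat, which are known pairs, gave -0.214 to 0.255. This measure therefore cannot decide whether rats of the strains are paired by these numbers. A block on them left Tor3a at 0.21 (edgeR adjusted p = 0.161) and called 1730 genes, 3 rows beside Ifit1 (ENSRNOG00000021916 in addition, log2 fold change 0.72, edgeR adjusted p = 0.0337), 10 interferon genes, and Ifit1bl at 0.85 (adjusted p = 0.0376). The block on the rat left the side difference of Ifit1 at 0.25. For WKY levels of Ifit1 the depth is the limit.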

Other observations

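The rows beside Ifit1 were set against its level over the 6 SHR rats after the data had been seen. Pearson's r was 0.81 for ENSRNOG00000036604 (rho 0.771, exact permutation p = 0.0472 and 0.103), the row that was lower in SHR than in WKY. It was 0.77 for ENSRNOG00000022839, 0.37 for ENSRNOG00000018944, -0.63 for ENSRNOG00000019077 and -0.64 for ENSRNOG00000021916. Adjusted over 11 genes, that of ENSRNOG00000036604 was 0.260 for r and 0.188 for rho by the permutation test, and none of the 5 rows passed. With all 12 SHR libraries r was -0.88 for ENSRNOG00000021916 (exact permutation p = 0.0389, adjusted 0.204).

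Of the 21 paired interferon genes, Ifit1bl included, 19 had a promoter entry, and 5 of these held the letters GAAANNGAAA or TTTCNNTTTC in the 250 bases before a start (Ifit1bl, Ifitm2, Cxcl10, RT1-S2 and Tapbp), where 3.61% of all 27457 genes with entries did. These genes came from lists drawn up by function (Ifit, antiviral effectors, sensing and signalling, antigen presentation), with earlier results of these data known. The share describes the lists and was not tested.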
